A study of Homo sapiens with 15 samples.

Results

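The EGF receptor family and its ligands were followed across 5 conditions of HSC-5 cells, as 10 genes found by symbol among the 60649 genes listed for each library. They were 3 receptors (EGFR, ERBB2 and ERBB3) and 7 ligand genes (AREG, EREG, HBEGF, TGFA, BTC, EPGN and NRG1). Receptors of this family are tyrosine kinases at the cell surface that pair when a ligand binds and then signal through RAS and ERK, among other routes. The ligands are made as membrane-anchored precursors and are released by proteases, so that a cell can stimulate itself and its neighbors. In epidermis and in squamous carcinoma the family is known for driving keratinocyte growth and wound repair.

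HSC-5 cells derive from a squamous carcinoma of human skin and were used here to ask what loss of PRMT5 or of WDR77 does in such cells. PRMT5 is an enzyme that methylates arginines, and WDR77 is the protein it works with. Bulk RNA was sequenced in 15 libraries, 3 per condition. The sgNeg libraries had the genotype WT and an empty vector in place of a guide. The sgPRMT5-1 and sgPRMT5-2 libraries had the genotype PRMT5 Knockout, and the sgWDR77-1 and sgWDR77-2 libraries the genotype WDR77 Knockout. The treatment was given as Neomycin in all 5 conditions, sgNeg included, which goes with selection by G418. By design, cuts in PRMT5 fell within the sequence that codes for its methylating part. Those in WDR77 fell where WD repeat 1 of the protein is coded. The model was a single line, described as carrying an inactivating p53 mutation, and the labels do not say whether clones or pools were used. The RNA libraries were described as biological replicates, and quantitative data in general as coming from independent experiments. Whether each RNA library came from its own infection was not stated, so the p-values below measure the spread between these samples.

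Each library had from 5146711 to 6730428 reads on genes. The library furthest from its replicates was sgWDR77-1 replicate 1, which differed from replicates 2 and 3 of its condition with chi-square values, per degree of freedom, of 12.6 and 17.7, where other pairs of replicates gave 1.55 to 9.16. Its share of reads outside genes was 3.57%, against 6.04% and 5.70% in replicates 2 and 3. The median over the 15 libraries was 3.88%, so by this share replicate 1 was near the median and replicates 2 and 3 lay above it. The members called with sgWDR77-1 are given with and without replicate 1. The sgNeg library of replicate 2, used in every comparison with sgNeg, also stood apart: 7.16% of its reads lay outside genes, the highest of all 15 libraries, against 2.84% and 3.56% in replicates 1 and 3, and 20399 genes had a read, against 18576 and 18628. Its chi-square values per degree of freedom were 9.16 and 6.44. The labels name a stranded library kit and the methods another kit, and the strand setting of the counting was not stated. EGFR and ERBB2 overlap genes on the opposite strand, and ERBB3 and NRG1 share exon sequence with another annotated gene on the same strand, so a few of their reads are uncertain. AREG, EREG, HBEGF, TGFA, BTC and EPGN overlap no exon of another gene. Levels are in counts-per-million (CPM), the reads of a gene over all reads of its library after scaling.

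The targeted genes were checked first. PRMT5 read 59.1, 49.6 and 67.8 CPM in the sgNeg libraries, 33.0, 35.8 and 41.4 in those with sgPRMT5-1, 44.1, 44.5 and 39.4 in those with sgPRMT5-2, 54.5, 64.2 and 54.4 in those with sgWDR77-1 and 79.9, 65.2 and 64.4 in those with sgWDR77-2. All 6 libraries with a PRMT5 sgRNA lay below all 3 sgNeg libraries, and the WDR77 libraries overlapped them. WDR77 read 125, 114 and 119 CPM in the sgNeg libraries, 134, 119 and 156 in those with sgPRMT5-1, 126, 129.9 and 119 in those with sgPRMT5-2, 30.8, 52.0 and 53.3 in those with sgWDR77-1 and 26.6, 24.9 and 22.0 in those with sgWDR77-2. All 6 libraries with a WDR77 sgRNA lay far below the rest. PRMT5 fell by 0.67 on the log2 scale with sgPRMT5-1 (standard error 0.132, limma voom adjusted p = 0.0057) and by 0.45 with sgPRMT5-2 (standard error 0.130, adjusted p = 0.0114). WDR77 fell by 1.43 with sgWDR77-1 (standard error 0.148, limma voom adjusted p = 2.02e-06) and by 2.29 with sgWDR77-2 (standard error 0.165, adjusted p = 6.92e-09). Without sgWDR77-1 replicate 1, the library with the least WDR77 mRNA of its condition, WDR77 fell by 1.17 with sgWDR77-1 (limma voom adjusted p = 8.2e-07). The sgRNAs of PRMT5 did not differ in PRMT5 mRNA past the threshold (log2 difference 0.22, limma voom adjusted p = 0.33). An mRNA level does not measure the protein, and an edited gene can still be transcribed.

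The cell type was checked with marker genes. Of 10 keratinocyte or squamous markers 9 passed the count filter, and their sum lay between 2859 and 3742 CPM in every library, led by KRT17 at a mean of 928 CPM. KRT14 was the exception at 0.440 CPM. Single markers varied far more than the sum: KRT5 ran from 33.8 to 817 CPM over the libraries and KRT6A from 0.777 to 30.8, so the check was not uniform. The fibroblast list summed to between 6.68 and 15.5 CPM, with COL1A1 at 10.7 and COL1A2 at 0. The melanocyte list summed to between 2.55 and 7.48 CPM, with PMEL at 3.48 and TYR and DCT at 0. The leukocyte list summed to between 0.360 and 1.86 CPM, with CD14 at 0.966 and CD3E at 0. The endothelial list summed to between 12.7 and 36.1 CPM, most of it CDH5 at 20.02, with KDR at 0. Its mean was 33.9 CPM in sgWDR77-1 against 21.4 in sgNeg, and its part in any result for that condition was not tested. In bulk RNA, fewer cells of a type and less RNA per cell cannot be told apart.

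Of the 10 members, 9 passed the filter of a mean normalized count of at least 3 and were tested. EPGN, the gene of the ligand epigen, did not pass. The 4 comparisons of an sgRNA with sgNeg use the same 3 sgNeg libraries, so their values are set side by side and are not independent. With sgPRMT5-2, 7 of the 9 tested members changed at an adjusted p under 0.05, 5 up and 2 down, where 31% of all 14056 tested genes were called, 16.3% up and 14.7% down. With sgPRMT5-1, 1 member rose, where 2.87% of all tested genes were called, 1.26% up and 1.61% down. With sgWDR77-1, 2 members rose, where 9.48% of genes were called, 3.58% up and 5.9% down. With sgWDR77-2, 1 member rose, where 4.8% of genes were called, 1.81% up and 2.98% down. By whether the 3 libraries of a condition overlapped the 3 of sgNeg, 8 members stood apart with sgPRMT5-2 (50.4% of all tested genes), 4 with sgPRMT5-1 (24.1%), 2 with sgWDR77-1 (24.1%) and 2 with sgWDR77-2 (25.2%). HBEGF was the member called with all 4 sgRNAs. The members' median log2 fold change was 0.23 with sgPRMT5-2, against 0.01 over all tested genes. It was 0.09 with sgPRMT5-1, -0.00 with sgWDR77-1 and 0.06 with sgWDR77-2, against 0.02, -0.01 and 0.02 over all tested genes. A p that misses the threshold does not show that the values did not differ.

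**Figure D1:**
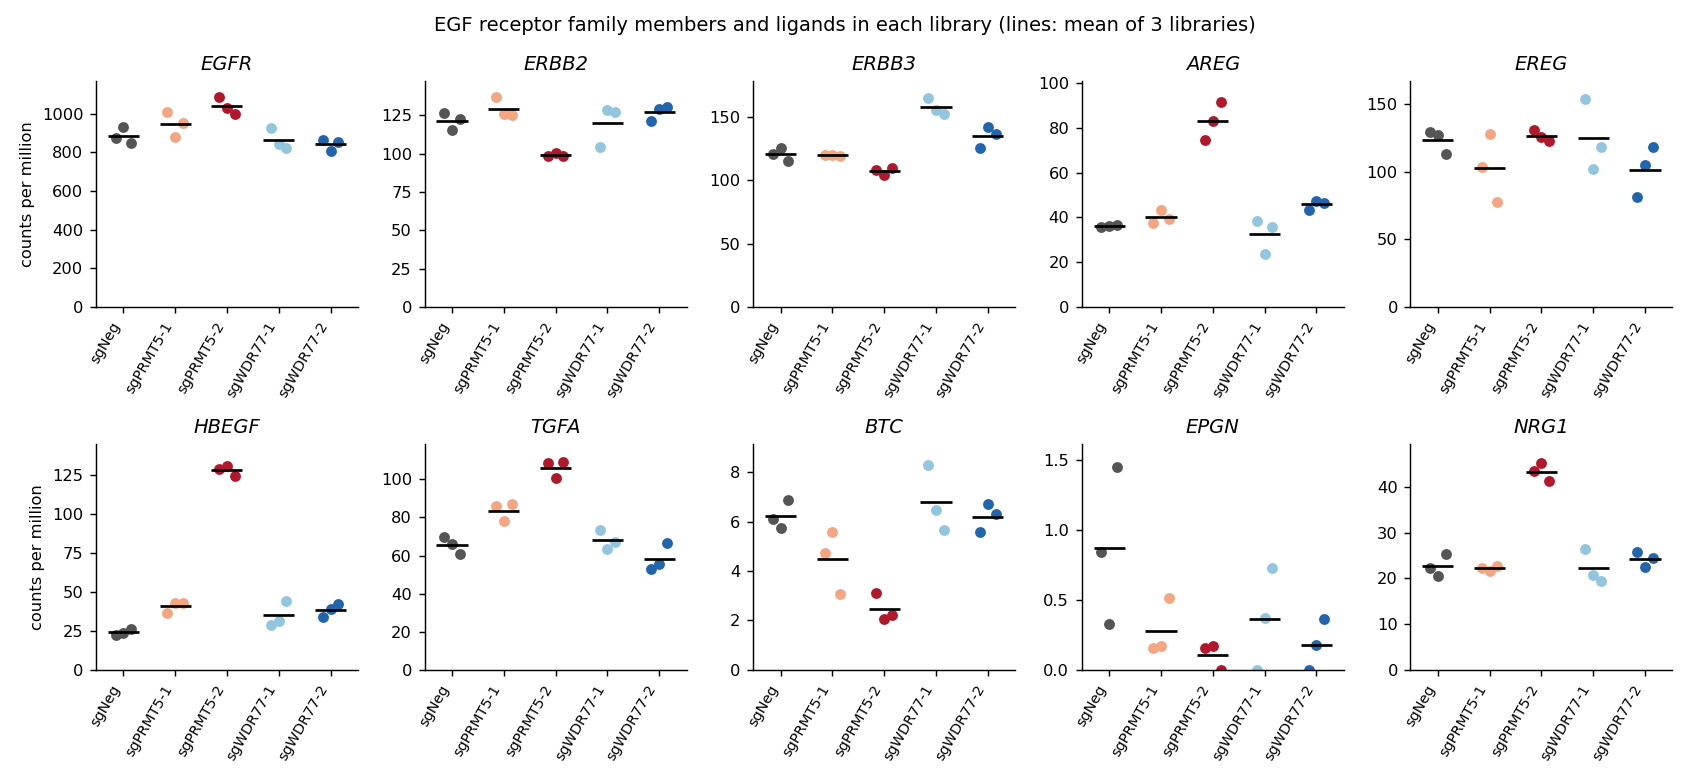
Level of each of the 10 members in CPM (vertical axis, from 0) in the 5 conditions (horizontal axis), with a point for each library and a line at the mean of 3 libraries. HBEGF sits between 124 and 131 in sgPRMT5-2 and between 22.2 and 25.9 in sgNeg, while EREG overlaps sgNeg in each knockout condition.

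Each of the 3 receptors was called with 1 sgRNA, EGFR and ERBB2 with sgPRMT5-2 and ERBB3 with sgWDR77-1. EGFR (ENSG00000146648.20, chromosome 7, 55019017 to 55211628 in GRCh38) encodes the receptor that binds EGF, amphiregulin and HB-EGF. EGFR read 874, 929.9 and 849 CPM in the sgNeg libraries, 1010.5, 879 and 950.1 in those with sgPRMT5-1, 1086, 1028 and 998 in those with sgPRMT5-2, 926, 842 and 824 in those with sgWDR77-1 and 866, 807 and 851 in those with sgWDR77-2. Its 3 sgPRMT5-2 libraries lay above all 3 sgNeg libraries, and the other conditions overlapped sgNeg. EGFR rose with sgPRMT5-2 by 0.23 on the log2 scale (standard error 0.079, 95% confidence interval 0.07 to 0.39, limma voom adjusted p = 0.0304). The log2 fold change was 0.10 with sgPRMT5-1, -0.03 with sgWDR77-1 and -0.07 with sgWDR77-2, and none of these passed (limma voom adjusted p = 0.567, 0.841 and 0.682). With 1 library left out in turn these ran from 0.03 to 0.13, from -0.09 to 0.002 and from -0.14 to -0.05. The sgPRMT5-2 call was held under 14 of 23 alternatives: it was lost with library totals alone (0.141) and with limma-trend (0.0532), and its adjusted p lay between 0.0517 and 0.167 without sgNeg replicate 1 or 3, sgPRMT5-1 replicate 1, any 1 sgPRMT5-2 replicate or sgWDR77-2 replicate 2.

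ERBB2 (ENSG00000141736.14, chromosome 17, 39687914 to 39730426) encodes the receptor that binds no ligand itself and is the favored partner of the others. ERBB2 read 126, 115 and 123 CPM in the sgNeg libraries, 137, 126 and 125 in those with sgPRMT5-1, 98.4, 100.5 and 98.5 in those with sgPRMT5-2, 104, 129 and 127 in those with sgWDR77-1 and 121, 129 and 131 in those with sgWDR77-2. The 3 sgPRMT5-2 libraries were the lowest of all 15. ERBB2 fell by 0.29 on the log2 scale with sgPRMT5-2 (standard error 0.094, limma voom adjusted p = 0.0218). Its other values against sgNeg lay between -0.02 and 0.09, and none passed. With 1 library left out in turn the sgWDR77-1 value lay between -0.09 and 0.08. The call was lost with upper quartile scaling (limma voom adjusted p = 0.0633), without sgNeg replicate 1 (0.0615) and without sgPRMT5-2 replicate 1 (0.0516).

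ERBB3 (ENSG00000065361.17, chromosome 12, 56076799 to 56103505) encodes a neuregulin receptor with a nearly inactive kinase that signals through its partners. ERBB3 read 121, 126 and 115 CPM in the sgNeg libraries, 119, 119.7 and 119 in those with sgPRMT5-1, 108, 104 and 109 in those with sgPRMT5-2, 165, 155 and 152 in those with sgWDR77-1 and 125, 142 and 137 in those with sgWDR77-2. The sgWDR77-1 libraries were the 3 highest of all 15, and the sgPRMT5-2 libraries the 3 lowest. ERBB3 rose by 0.38 on the log2 scale with sgWDR77-1 (standard error 0.084, 95% confidence interval 0.21 to 0.56, limma voom adjusted p = 0.0056). Without sgWDR77-1 replicate 1 the value was 0.36 (limma voom adjusted p = 0.0062), and in a fit of only the libraries compared the adjusted p was 0.0701. The log2 fold change was 0.16 with sgWDR77-2 (limma voom adjusted p = 0.312), -0.01 with sgPRMT5-1 (0.957) and -0.17 with sgPRMT5-2 (0.139). With library totals alone the sgPRMT5-2 value was -0.26 (limma voom adjusted p = 0.021), and without sgWDR77-1 replicate 1 it was -0.19 (0.0415), so that it then passed.

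HBEGF (ENSG00000113070.8, chromosome 5, 140332843 to 140346603) encodes heparin-binding EGF-like growth factor, a ligand of EGFR and of ERBB4 that is released by ADAM proteases. The 250 bases before its start are printed because HBEGF rose with all 4 sgRNAs, and those before AREG and EREG because AREG rose with sgPRMT5-2 while EREG, its neighbor on chromosome 4, did not pass the test. The sequences are from RefSeq (GRCh38.p14), where 8 of the 10 members had an entry. They run 5′ to 3′ on the strand of the gene: HBEGF chr5:140346604-140346853 on the minus strand, AREG chr4:74444886-74445135 on the plus strand and EREG chr4:74364895-74365144 on the plus strand. Capitals mark matches, on either strand, to a CRE, which reads TGACGTCA, or to a GC box, which reads GGGCGG. They also mark matches to the letters of a TATA box, for which the short form TATAAA was searched. An AP-1 site (TGA, any 1 base, then TCA) and an NF-kB site (GGG, any 2 bases, then TTTCC) had no match in these windows.
HBEGF: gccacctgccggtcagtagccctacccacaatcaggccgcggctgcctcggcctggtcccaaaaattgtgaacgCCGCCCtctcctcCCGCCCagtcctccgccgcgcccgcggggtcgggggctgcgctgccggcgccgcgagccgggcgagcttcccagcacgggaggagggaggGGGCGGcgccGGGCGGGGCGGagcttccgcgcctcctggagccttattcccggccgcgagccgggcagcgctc
AREG: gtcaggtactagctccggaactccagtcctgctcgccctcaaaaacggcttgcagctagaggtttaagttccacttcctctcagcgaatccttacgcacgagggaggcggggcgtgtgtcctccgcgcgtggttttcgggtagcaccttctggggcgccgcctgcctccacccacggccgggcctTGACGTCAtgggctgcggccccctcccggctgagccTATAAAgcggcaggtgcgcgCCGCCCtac
EREG: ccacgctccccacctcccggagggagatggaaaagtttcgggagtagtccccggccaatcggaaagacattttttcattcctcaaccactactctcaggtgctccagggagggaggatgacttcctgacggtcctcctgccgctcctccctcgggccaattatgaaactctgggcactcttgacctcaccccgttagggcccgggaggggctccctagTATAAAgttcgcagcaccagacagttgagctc
The HBEGF window held 5 GC box matches and no other match, with the last 2 sharing a base. Its GC content was 76.4%. The AREG window held a CRE match from base -65 to -58, a TATA box match from -29 to -24 and a GC box match from -9 to -4, counted back from the start. The EREG window held a TATA box match from -32 to -27 alone. Of 35116 RefSeq promoters of this length, 42.6% held a GC box match, 10.7% a TATA box match, 6.57% an AP-1 match, 1.73% an NF-kB match and 1.65% a CRE match. A match describes the letters of the window, and no binding was measured.

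HBEGF read 22.2, 23.5 and 25.9 CPM in the sgNeg libraries, 36.4, 42.6 and 42.6 in those with sgPRMT5-1, 129, 131 and 124 in those with sgPRMT5-2, 28.6, 31.5 and 44.3 in those with sgWDR77-1 and 34.1, 38.7 and 42.1 in those with sgWDR77-2. All 12 knockout libraries lay above all 3 sgNeg libraries, and the 3 sgPRMT5-2 libraries lay far above the rest. These values rest on 131 to 143 reads per library in sgNeg and on 733 to 827 in sgPRMT5-2. HBEGF rose by 2.42 on the log2 scale with sgPRMT5-2, a 5.36-fold change (log2 standard error 0.135, 95% confidence interval of the fold 4.41 to 6.51, limma voom adjusted p = 3.24e-11). It rose by 0.76 with sgPRMT5-1, a 1.69-fold change (log2 standard error 0.146, 95% confidence interval of the log2 value 0.46 to 1.06, limma voom adjusted p = 0.0047). It rose by 0.68 with sgWDR77-2 (standard error 0.149, limma voom adjusted p = 0.00779) and by 0.52 with sgWDR77-1 (standard error 0.151, adjusted p = 0.0319). Under the 23 alternatives the sgPRMT5-2 value stayed between 2.33 and 2.49 and past the threshold in each.

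The smaller HBEGF changes were less stable when libraries were left out. The sgPRMT5-1 call was lost without sgPRMT5-1 replicate 3 (log2 fold change 0.69, limma voom adjusted p = 0.0536). The sgWDR77-2 call was lost without sgNeg replicate 1 (0.60, limma voom adjusted p = 0.0646), sgWDR77-2 replicate 2 (0.64, 0.0502) or replicate 3 (0.58, 0.0588). The sgWDR77-1 value was 0.33 without sgWDR77-1 replicate 3, the highest of its condition (limma voom adjusted p = 0.148), and was 0.66 without replicate 1 (0.00625). That call was also lost without sgNeg replicate 1 (limma voom adjusted p = 0.136), 2 (0.0838) or 3 (0.0803), sgPRMT5-2 replicate 2 (0.0535) or sgWDR77-2 replicate 2 (0.0515). It was lost as well with no filter on low counts (0.0709) and in a fit of only the libraries compared (0.125).

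AREG (ENSG00000109321.11, chromosome 4, 74445136 to 74455005) encodes amphiregulin, an EGFR ligand that keratinocytes make for themselves. AREG read 35.6, 36.3 and 36.5 CPM in the sgNeg libraries, 37.4, 43.3 and 39.4 in those with sgPRMT5-1, 74.6, 83.1 and 91.5 in those with sgPRMT5-2, 38.4, 23.9 and 35.6 in those with sgWDR77-1 and 43.5, 47.5 and 46.3 in those with sgWDR77-2. The sgPRMT5-2 libraries were far above all others, the sgPRMT5-1 and sgWDR77-2 libraries lay just above sgNeg without overlap, and the sgWDR77-1 libraries overlapped sgNeg. AREG rose by 1.19 on the log2 scale with sgPRMT5-2, a 2.29-fold change (log2 standard error 0.130, 95% confidence interval of the log2 value 0.92 to 1.46, limma voom adjusted p = 7.67e-07). Its log2 fold change was 0.14 with sgPRMT5-1 (limma voom adjusted p = 0.643), 0.34 with sgWDR77-2 (0.169) and -0.17 with sgWDR77-1 (0.501). With 1 library left out in turn the sgWDR77-1 value of AREG ranged from -0.30 without replicate 1 of that condition (limma voom adjusted p = 0.234) to 0.02 without replicate 2, its lowest library (0.951).

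EREG (ENSG00000124882.4, chromosome 4, 74365145 to 74388749) encodes epiregulin, a ligand of EGFR and ERBB4. EREG read 129, 127 and 113 CPM in the sgNeg libraries, 103, 128 and 77.4 in those with sgPRMT5-1, 131, 125 and 123 in those with sgPRMT5-2, 153, 102 and 118 in those with sgWDR77-1 and 81.1, 105 and 118 in those with sgWDR77-2. Each knockout condition overlapped sgNeg, and the libraries of sgPRMT5-1 and sgWDR77-1 spread widely. The log2 fold change with sgPRMT5-2 was 0.04, with a 95% confidence interval of -0.28 to 0.36 (limma voom adjusted p = 0.874). The other values were -0.29 with sgPRMT5-1, -0.00 with sgWDR77-1 and -0.29 with sgWDR77-2, and none passed. With 1 library left out in turn, the sgPRMT5-1 value ran from -0.47 to -0.13 and the sgWDR77-2 value from -0.44 to -0.17. The EREG value with sgWDR77-1 was -0.15 without replicate 1 of that condition (limma voom adjusted p = 0.592) and 0.12 without replicate 2 (0.713). The genes EPGN, EREG, AREG and BTC are the 4 protein-coding genes in the stretch of chromosome 4 from 74308470 to 74794523. Of these, with sgPRMT5-2, AREG rose, BTC fell, EREG did not pass and EPGN was not tested.

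TGFA (ENSG00000163235.16, chromosome 2, 70447284 to 70554193) encodes transforming growth factor alpha, an EGFR ligand. TGFA read 69.8, 66.2 and 60.8 CPM in the sgNeg libraries, 86.0, 77.9 and 87.0 in those with sgPRMT5-1, 109, 101 and 109 in those with sgPRMT5-2, 73.3, 63.7 and 67.1 in those with sgWDR77-1 and 53.1, 55.5 and 66.4 in those with sgWDR77-2. All 6 libraries with a PRMT5 sgRNA lay above all sgNeg libraries, and the WDR77 libraries overlapped sgNeg. TGFA rose by 0.70 on the log2 scale with sgPRMT5-2 (standard error 0.101, 95% confidence interval 0.49 to 0.91, limma voom adjusted p = 2.7e-05). With sgPRMT5-1 it was 0.35 (standard error 0.103, limma voom adjusted p = 0.0691), which passed only without sgWDR77-1 replicate 1 (0.33, 0.0323).

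NRG1 encodes neuregulin 1, a ligand of ERBB3 and ERBB4. NRG1 read 22.2, 20.5 and 25.2 CPM in the sgNeg libraries, 22.2, 21.6 and 22.8 in those with sgPRMT5-1, 43.5, 45.2 and 41.3 in those with sgPRMT5-2, 26.4, 20.7 and 19.3 in those with sgWDR77-1 and 25.8, 22.4 and 24.5 in those with sgWDR77-2. The 3 sgPRMT5-2 libraries stood alone, and the other conditions overlapped sgNeg. NRG1 rose by 0.94 on the log2 scale with sgPRMT5-2, a 1.92-fold change (log2 standard error 0.125, 95% confidence interval of the log2 value 0.68 to 1.20, limma voom adjusted p = 9.26e-06). Its other log2 values against sgNeg lay between -0.04 and 0.10, and that with sgWDR77-1 ranged from -0.16 to 0.05 with 1 library left out in turn. All 23 alternatives kept the sgPRMT5-2 calls of NRG1, AREG, TGFA and BTC.

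BTC (ENSG00000174808.12, chromosome 4, 74744759 to 74794523) encodes betacellulin, a ligand of EGFR and ERBB4. BTC read 6.10, 5.75 and 6.89 CPM in the sgNeg libraries, 4.74, 5.60 and 3.08 in those with sgPRMT5-1, 3.11, 2.04 and 2.20 in those with sgPRMT5-2, 8.31, 6.48 and 5.66 in those with sgWDR77-1 and 5.58, 6.71 and 6.30 in those with sgWDR77-2. All 6 libraries with a PRMT5 sgRNA lay below all sgNeg libraries, on 12 to 33 reads each. BTC fell by 1.33 on the log2 scale with sgPRMT5-2 (standard error 0.296, 95% confidence interval -1.94 to -0.71, limma voom adjusted p = 0.00174). With sgPRMT5-1 the log2 fold change was -0.50 (limma voom adjusted p = 0.301), and from -0.69 to -0.31 with 1 library left out. With sgWDR77-1 it was 0.11 (limma voom adjusted p = 0.815), and from -0.03 to 0.24 with 1 library left out in turn. EPGN (ENSG00000182585.10, chromosome 4, 74308470 to 74316789) had 5, 2 and 8 reads in the sgNeg libraries, 1, 1 and 3 in those with sgPRMT5-1, 1, 1 and 0 in those with sgPRMT5-2, 0, 2 and 4 in those with sgWDR77-1 and 0, 1 and 2 in those with sgWDR77-2. EPGN was not tested.

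**Figure D2:**
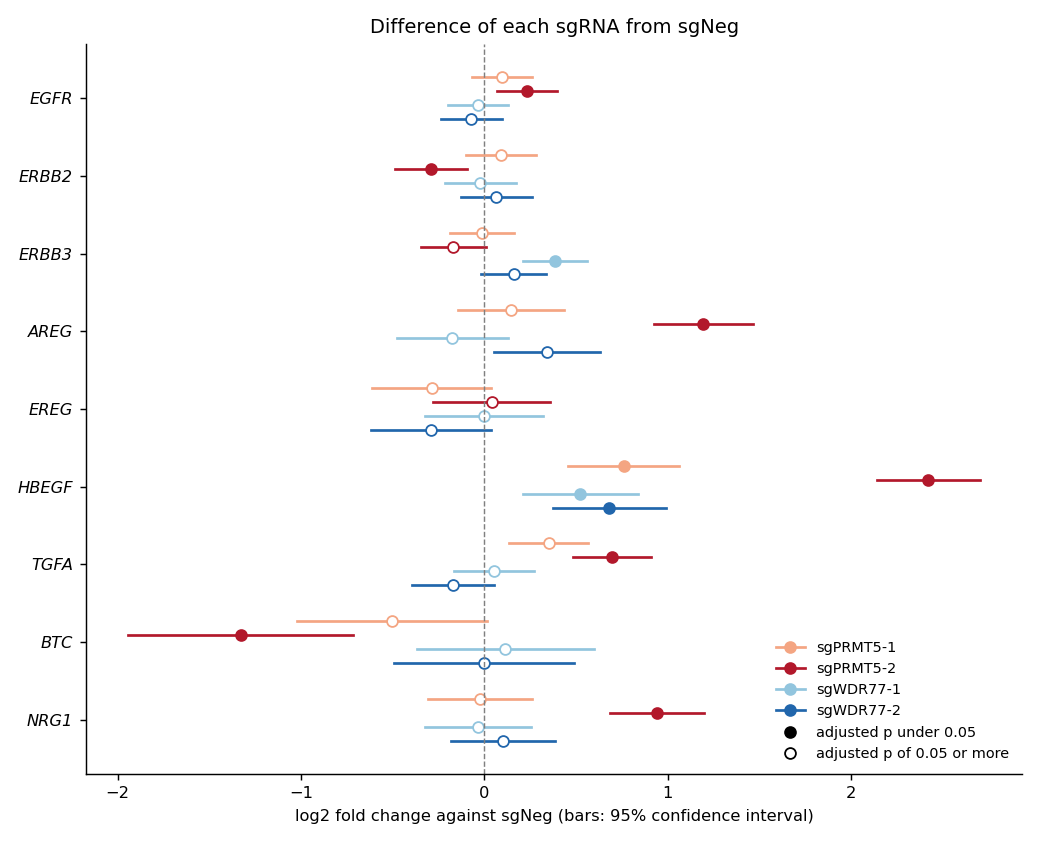
Log2 fold change of the 9 tested members with each sgRNA against sgNeg (horizontal axis), with bars for the 95% confidence interval and filled points for an adjusted p under 0.05. HBEGF is filled for all 4 sgRNAs, from 0.52 with sgWDR77-1 to 2.42 with sgPRMT5-2, while NRG1 and AREG are filled for sgPRMT5-2 alone.

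Levels were also compared between genes, as CPM per kilobase of transcript (mean ± SD, n = 3). The SD covers the spread between libraries and not the choice of 1 transcript per gene. For NRG1 that transcript had 11983 bases, and which transcripts the cells made was not measured. In sgNeg, EGFR mRNA was at 89.3 ± 4.18, above every other member. AREG followed at 29.3 ± 0.395, ERBB2 at 26.7 ± 1.24 and EREG at 26.7 ± 1.93, of which ERBB2 and EREG overlapped. Below them came ERBB3 at 21.5 ± 0.926, TGFA at 15.9 ± 1.10, HBEGF at 10.1 ± 0.809, BTC at 2.35 ± 0.221, NRG1 at 1.89 ± 0.198 and EPGN at 0.327 ± 0.210, with no overlap between neighbors. In sgPRMT5-2, HBEGF stood at 54.2 ± 1.48, next after EGFR at 105 ± 4.47 and AREG at 67.3 ± 6.86, and above EREG at 27.4 ± 0.941. No neighbors in that order overlapped. In sgWDR77-1, ERBB3 was next after EGFR at 28.0 ± 1.14, but its libraries overlapped those of EREG. Without sgWDR77-1 replicate 1, ERBB2 was next after EGFR at a mean of 28.1 and ERBB3 followed at 27.4. In sgPRMT5-1 and sgWDR77-2 the order began with EGFR, AREG and ERBB2, as in sgNeg.

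The 7 ligand levels per kilobase summed to 86.5 ± 1.38 in sgNeg and 179 ± 4.69 in sgPRMT5-2. The sums were 95.9 ± 6.84 for sgPRMT5-1, 89.3 ± 13.1 for sgWDR77-1 and 93.9 ± 8.70 for sgWDR77-2. Without replicate 1 the sgWDR77-1 sum was 84.1, with HBEGF at 19.0% of it. The sum was thus higher in sgPRMT5-2 than in any library of the other conditions, whose highest was 103.7. The 3 receptor levels summed to 137 ± 4.19 in sgNeg and 146 ± 4.42 in sgPRMT5-2. HBEGF made up 11.7% of the ligand sum in sgNeg (10.7% to 12.9%), and 30.3% in sgPRMT5-2 (28.6% to 31.2%). It made up 18.0% in sgPRMT5-1, 16.7% in sgWDR77-1 and 17.3% in sgWDR77-2. EREG made up 30.8% in sgNeg and 15.3% in sgPRMT5-2, where its own level overlapped sgNeg. AREG made up 33.8% in sgNeg and 37.5% in sgPRMT5-2. These sums are of mRNA and were not tested.

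**Figure D3:**
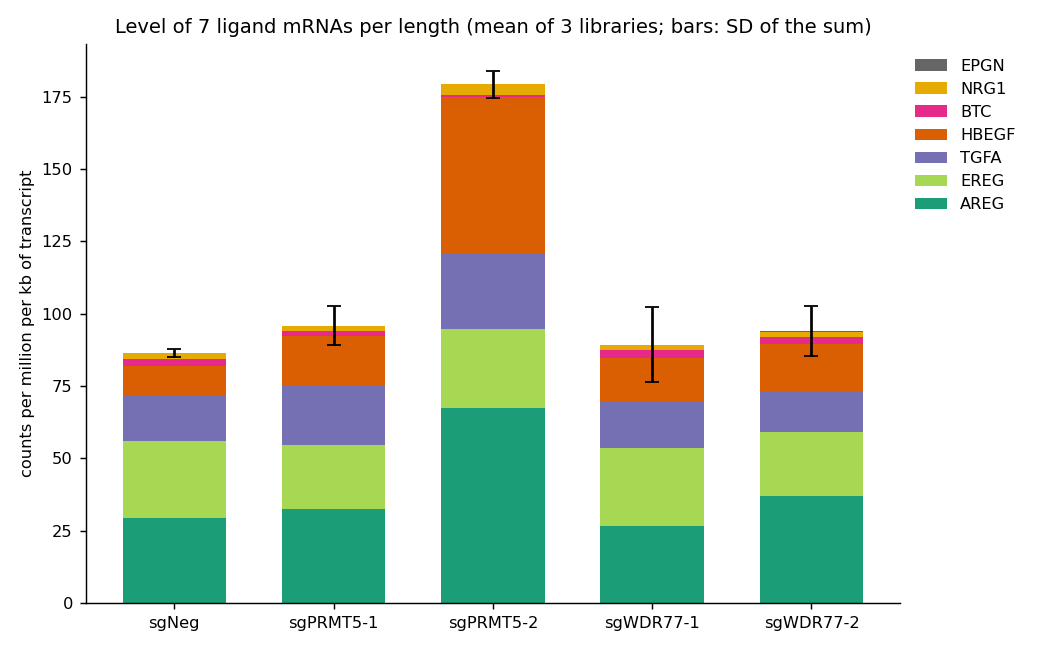
Level of the 7 ligand mRNAs in CPM per kilobase of transcript (vertical axis, from 0), stacked for each condition as means of 3 libraries, with bars for the SD of the sum. The stack reaches 179 in sgPRMT5-2 and 86.5 in sgNeg, with HBEGF at 54.2 and 10.1 of these.

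The sgRNAs of each gene were also pooled, as the mean of both against sgNeg. In PRMT5KO, 5 of the 9 tested members were called, where 22.8% of all tested genes were, 4 up (12% of genes) and 1 down (10.8%). The 6 libraries did not overlap sgNeg for 4 members, against 19.2% of genes. HBEGF rose by 1.59 on the log2 scale (limma voom adjusted p = 1.64e-08), AREG by 0.67 (0.000355), TGFA by 0.52 (0.000247) and NRG1 by 0.46 (0.006), and BTC fell by 0.92 (0.00549). Of these 5 members, all called with sgPRMT5-2, HBEGF alone was also called with sgPRMT5-1, where NRG1 stood at 0.98-fold and AREG at 1.11-fold. In a fit of only the libraries compared, with the sgRNAs as 1 group, AREG (limma voom adjusted p = 0.12) and NRG1 (0.249) were not called, and NRG1 was lost without sgNeg replicate 2 (0.0535). EGFR stood at 0.16 (limma voom adjusted p = 0.0903), and passed without sgWDR77-1 replicate 1 (0.0484) and with no filter on low counts (0.0265). In WDR77KO, 2 members were called, where 8.44% of all tested genes were, both up (2.9% of genes, with 5.55% down). Of the members 1, HBEGF, did not overlap sgNeg, against 10.6% of genes. HBEGF rose by 0.60 (limma voom adjusted p = 0.00508) and ERBB3 by 0.27 (0.0221). Without sgWDR77-1 replicate 1 these were 0.67 (limma voom adjusted p = 0.000777) and 0.26 (0.0122). HBEGF was lost without sgNeg replicate 1 (0.0561). ERBB3 was lost in a fit of only the libraries compared (0.195) and without sgNeg replicate 1 (0.0985), sgNeg replicate 3 (0.183), sgWDR77-2 replicate 2 (0.0816) or replicate 3 (0.0585).

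A direct comparison of PRMT5KO with WDR77KO, in the fit of all 15 libraries, called 7 of the 9 tested members, where 27.1% of all tested genes were called, 5 higher (15.7% of genes) and 2 lower (11.4%). Higher in PRMT5KO were HBEGF by 0.99 on the log2 scale (limma voom adjusted p = 1.5e-07), AREG by 0.59 (0.000128), TGFA by 0.58 (6.2e-06), NRG1 by 0.43 (0.00189) and EGFR by 0.22 (0.00666). Lower in PRMT5KO were BTC, with a log2 difference of -0.97 (limma voom adjusted p = 0.000946), and ERBB3, with -0.36 (0.000141). TGFA and ERBB3, 2 members, did not overlap between the 6 libraries of each knockout, against 4.62% of genes, whereas HBEGF did. Without sgWDR77-1 replicate 1, HBEGF differed by 0.90 (limma voom adjusted p = 1.14e-07) and ERBB3 by -0.37 (2.94e-05), and ERBB2 passed as well at -0.20 (0.00919). AREG (0.0872) and NRG1 (0.144) were lost in a fit of only the libraries compared, which leaves sgNeg out and called 5 members.

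The sgRNAs of PRMT5 were compared with each other, and 5 of the 9 tested members differed, where 7.54% of all tested genes did, 4 higher in sgPRMT5-2 (3.56% of genes) and 1 lower (3.98%). Libraries of the sgRNAs did not overlap for 6 members, against 34.4% of genes. In sgPRMT5-2, HBEGF was higher than in sgPRMT5-1 by 1.66 on the log2 scale (limma voom adjusted p = 1.17e-08), AREG by 1.05 (1.45e-05), NRG1 by 0.96 (3.36e-05) and TGFA by 0.35 (0.0346). ERBB2 was lower, with a log2 difference of -0.38 (limma voom adjusted p = 0.0149). The log2 difference was -0.82 for BTC (0.107), 0.13 for EGFR (0.318) and 0.33 for EREG (0.206), and none of these passed. TGFA was lost without sgPRMT5-1 replicate 1 (0.104) or 2 (0.153), or without sgPRMT5-2 replicate 1 (0.121), 2 (0.0665) or 3 (0.132). ERBB2 was lost without sgPRMT5-1 replicate 1 (0.0906), or without sgPRMT5-2 replicate 1 (0.0642), 2 (0.0574) or 3 (0.0541). BTC passed without sgPRMT5-1 replicate 3 (0.0313), and EREG in a fit of only the libraries compared (0.0477). Between sgWDR77-2 and sgWDR77-1, limma voom called 0 of the 9 tested members, where 2.41% of all tested genes were called, 1.84% higher and 0.569% lower. Of the members 2, AREG and ERBB3, did not overlap between them, against 19.9% of genes. ERBB3, AREG and TGFA, 3 members, had an unadjusted p under 0.05 there, against 18.9% of genes, and limma-trend called 1, AREG (0.0491), against 2.61% of genes. Its log2 difference was 0.52 (limma voom adjusted p = 0.0571), which passed without sgWDR77-1 replicate 1 (0.64, 0.0213) or replicate 3 (0.60, 0.0474). Without sgWDR77-1 replicate 2 it was 0.29 (0.221), and in a fit of only the libraries compared the adjusted p was 0.298.

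The other genes of the pathway came from 6 lists holding 43 genes, of which 42 were tested and NRG3 had 0 reads. With sgPRMT5-2, 15 rose and 9 fell, where 31% of all tested genes were called. With sgPRMT5-1, 1 rose, where 2.87% were called. With sgWDR77-1, 2 rose and 3 fell, where 9.48% were called, and with sgWDR77-2, 3 rose and 2 fell, where 4.8% were called. Among the other receptor and ligands, 2 of 4 tested fell with sgPRMT5-2. EGF, the founding ligand, went from 6.86 ± 1.03 CPM (SD, n = 3) in sgNeg to 2.56 ± 0.698 and fell by 1.41 on the log2 scale (limma voom adjusted p = 0.00322). NRG4 fell by 1.45 (0.00658). ERBB4, the remaining receptor, was near 1 CPM, with a log2 fold change of 1.16 in sgWDR77-1 that did not pass (limma voom adjusted p = 0.212). Of 4 genes for ligand shedding, ADAM10, a protease that frees EGF and betacellulin, fell by 0.46 with sgPRMT5-2 (limma voom adjusted p = 0.00453). ADAM17, the protease that frees amphiregulin, HB-EGF and TGF-alpha, was at -0.11 (0.467), and RHBDF2, which brings ADAM17 to the surface, at -0.55 (0.0572). RHBDF2 passed with library totals alone (0.0347), in a fit of only the libraries compared (0.0219), and without sgNeg replicate 3 (0.0208), sgPRMT5-1 replicate 3 (0.0469), sgWDR77-1 replicate 1 (0.0304) or replicate 3 (0.0267).

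Of 7 adaptors and ubiquitin ligases, 3 rose and 2 fell with sgPRMT5-2, where 16.3% of all tested genes rose and 14.7% fell. CBL, a ligase that tags EGFR for breakdown, rose by 0.59 (limma voom adjusted p = 6.84e-05) while its relative CBLB fell by 1.19 (0.000647). GRB2, the adaptor that links the receptor to RAS, rose by 0.45 (0.000601). PTPN11, the phosphatase SHP2 and the gene of the list with the highest level per kilobase, was at 0.25 (0.0497), a call lost without each library in turn except sgWDR77-1 replicates 1 and 3 (0.0578 to 0.183), or with RLE scaling (0.0659), library totals alone (0.156) or limma-trend (0.061). Of 9 genes of the RAS-ERK cascade, 2 rose and 2 fell with sgPRMT5-2, against those same shares of all tested genes. MAPK3, which encodes ERK1, fell by 0.42 with sgPRMT5-2 (limma voom adjusted p = 0.00224). NRAS, the highest of this list per kilobase, was called with none of the 4 sgRNAs.

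Of 11 feedback inhibitors, 5 rose and 1 fell with sgPRMT5-2, where 16.3% of all tested genes rose and 14.7% fell. The median log2 fold change over the list was 0.67. With sgWDR77-1, 0 rose and 1 fell (median -0.08), and with sgWDR77-2, 2 rose and 0 fell (0.01). With sgPRMT5-1, 0 rose and 0 fell (-0.08). DUSP4, a phosphatase that removes the activating phosphates of ERK, went from 18.3 ± 2.25 CPM (SD, n = 3) in sgNeg to 46.1 ± 3.60 and rose by 1.33 (limma voom adjusted p = 2.25e-07). SPRY4, a Sprouty protein that restrains RAS signaling, rose by 1.74 (3.25e-06), and ERRFI1, which binds and inhibits EGFR, by 0.79 (1.63e-05). ERRFI1 also rose with sgWDR77-2 by 0.61 (limma voom adjusted p = 0.00172). DUSP5, a nuclear ERK phosphatase, rose by 0.74 with sgPRMT5-2 (limma voom adjusted p = 0.000538) and by 0.82 with sgWDR77-2 (0.0013). With sgWDR77-1 DUSP5 was at -0.41 (limma voom adjusted p = 0.103). That value was -0.17 without sgWDR77-1 replicate 1 (0.464), and it passed at -0.65 without replicate 3 (0.00325). Of 7 ERK-responsive genes, 5 rose and 1 fell with sgPRMT5-2, with a median of 0.87. The median over all tested genes with sgPRMT5-2 was 0.01. In this list 2 rose and 0 fell with sgWDR77-1, 1 rose and 1 fell with sgWDR77-2, and 1 rose and 0 fell with sgPRMT5-1. Beside these counts and those of the feedback inhibitors, 9.48%, 4.8% and 2.87% of all tested genes were called with these sgRNAs, in that order.

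FOSL1, an AP-1 subunit, stood at 125 ± 22.4 CPM (SD, n = 3) in sgNeg and 399 ± 11.9 in sgPRMT5-2, against 176 ± 27.5 for sgPRMT5-1, 115 ± 29.1 for sgWDR77-1 and 148 ± 20.4 for sgWDR77-2. FOSL1 rose by 1.69 with sgPRMT5-2 (limma voom adjusted p = 2.48e-08). PHLDA1, an early-response gene, rose by 1.84 with sgPRMT5-2 (limma voom adjusted p = 2.07e-11), by 0.69 with sgPRMT5-1 (0.000326) and by 0.53 with sgWDR77-1 (0.00203; 0.54 and 0.00191 without sgWDR77-1 replicate 1), and was at 0.16 with sgWDR77-2 (0.421). IER3, an immediate early gene, rose by 1.78 with sgPRMT5-2 (1.13e-05). CCND1, which encodes cyclin D1 and had the highest level per kilobase of this list, rose by 0.32 with sgPRMT5-2 (limma voom adjusted p = 0.0029) and fell by 0.36 with sgWDR77-2 (0.00572).

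**Figure D4:**
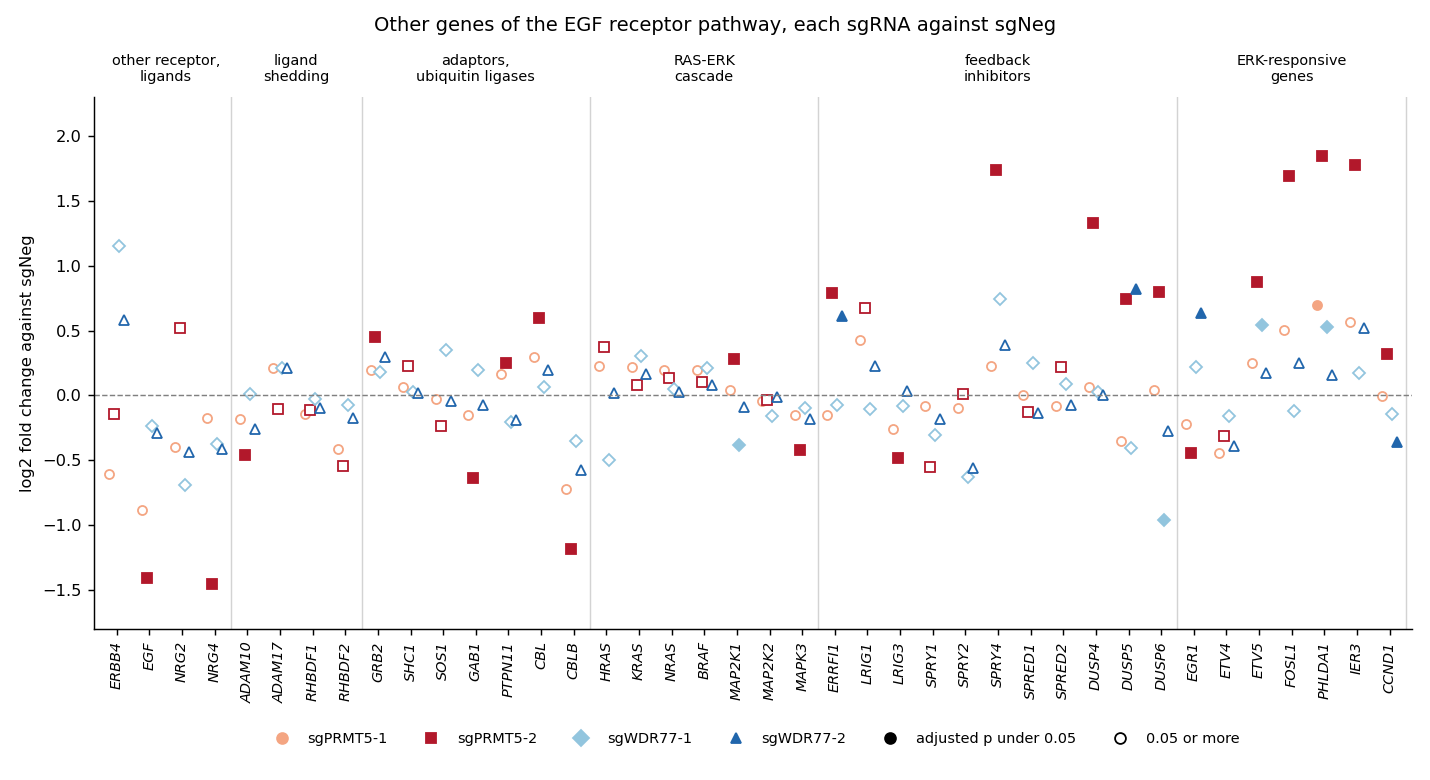
Log2 fold change against sgNeg (vertical axis) of 40 of the 42 tested pathway genes outside the members (2 genes of the RAS-ERK list are not shown), grouped by list along the horizontal axis, with a marker for each sgRNA, filled where the adjusted p was under 0.05. PHLDA1, IER3, SPRY4 and FOSL1 stand highest for sgPRMT5-2, between 1.69 and 1.84.

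The genes whose levels over the 15 libraries were most like those of EGFR, among 14047 other tested genes, were CPLX1 (Pearson r of log2 CPM 0.92), AKAP12 (0.92) and CMIP (0.91). Those most like AREG, the ligand with the highest level per kilobase, were BCL2L1 (0.92), PTGS2 (0.92) and NEDD4L (0.92). These correlations describe 15 libraries that fall into 5 conditions and share normalization, and they were not tested.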

How the data were processed

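HSC-5 mRNA was sequenced in 15 libraries (5 conditions, 3 replicates). The authors aligned reads to hg38 with STAR, counted them on genes with HTSeq and tested them with DESeq2. The deposited values are raw counts per gene, and 5 summary entries per library were kept out. The 10 members and the gene lists were chosen with earlier results of these data known. Counts were scaled by the trimmed mean of M values (TMM, trims 0.3 and 0.05), and 14056 of 60649 genes, those averaging at least 3 normalized counts, were tested. All 15 libraries entered a single limma voom fit (limma 3.58.1, R 4.3.3) with the 5 conditions as groups, tested on simulated data first. Adjusted p-values are Benjamini-Hochberg values over all tested genes, with calls under 0.05. CPM per kilobase used the MANE Select transcript of GENCODE 44, or merged exons for PHLDA1. Likeness used log2 CPM with a prior count of 2. EGR1 was named as the ERK-responsive gene that fell with sgPRMT5-2, outside the rule for named genes that follows. Named genes were the members, PRMT5, WDR77, the genes most like EGFR and AREG, and, of each pathway list, up to 3 with the smallest adjusted p over the 4 sgRNA comparisons plus the gene with the highest level per kilobase. Alternatives were RLE, upper quartile scaling, library totals by themselves, keeping every gene, requiring 10 normalized counts on average, a replicate block, only the libraries compared, limma-trend, and leaving out each library. With 5146711 to 6730428 reads per library, a gene at 1 CPM has about 5 to 7 reads and a wide error.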

Additional observations from a re-analysis of the deposited data

Results flagged for a closer look

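Members whose change differed between knockouts of the study's 2 target genes, by the limma voom contrast of PRMT5KO with WDR77KO, are given as log2 values. EGFR differed by 0.22, AREG by 0.59, HBEGF by 0.99, TGFA by 0.58 and NRG1 by 0.43, all higher in PRMT5KO. The AREG and NRG1 calls were lost in a fit of only the libraries compared (limma voom adjusted p = 0.0872 and 0.144). HBEGF averaged 40.5 CPM in sgPRMT5-1 and 127.8 in sgPRMT5-2 against 36.6 in WDR77KO, so most of its difference came from sgPRMT5-2. NRG1 averaged 22.2 CPM in sgPRMT5-1 against 23.2 in WDR77KO, and AREG 40.0 in sgPRMT5-1 against 39.2 in WDR77KO. ERBB3 differed by -0.36 and BTC by -0.97, both lower in PRMT5KO. Members that differed between the sgRNAs of PRMT5, by the contrast of sgPRMT5-2 with sgPRMT5-1, were AREG by 1.05, HBEGF by 1.66, NRG1 by 0.96 and TGFA by 0.35, all higher in sgPRMT5-2, and ERBB2 by -0.38. The TGFA and ERBB2 calls were each lost without 1 of several libraries of these sgRNAs (limma voom adjusted p = 0.0665 to 0.153 for TGFA and 0.0541 to 0.0906 for ERBB2). PRMT5 mRNA itself was not called different between those sgRNAs (0.22, limma voom adjusted p = 0.33). The cause of these differences was not tested.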

How the results depend on the processing

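Of 81 member results, 30 were called. Under 23 alternatives each, these gave 690 values: 0 changed sign, 45 lost the threshold, and 16 of the 30 results kept it throughout. Of 1173 values of the other results, 58 changed sign without a call and 11 passed. In sgWDR77-1, 1 member was called with no filter and 0 in a fit of only the libraries compared. That fit called 3 members in PRMT5KO and 1 in WDR77KO, and limma-trend called 1 between the WDR77 sgRNAs. In sgPRMT5-2 the split of 5 up and 2 down became 5 and 1 with upper quartile scaling, and 4 and 3 with library totals alone. Leaving out 1 library gave 0 to 2 members in sgPRMT5-1, 5 to 8 in sgPRMT5-2, 1 to 2 in sgWDR77-1, 0 to 1 in sgWDR77-2, 4 to 6 in PRMT5KO, 0 to 2 in WDR77KO, 7 to 8 between the knockouts, 3 to 6 between the PRMT5 sgRNAs and 0 to 1 between the WDR77 sgRNAs. With only the libraries compared, all genes called went from 1333 to 385 in sgWDR77-1, from 1187 to 477 in WDR77KO, from 3813 to 1962 between the knockouts, from 1060 to 2689 between the PRMT5 sgRNAs and from 339 to 17 between the WDR77 sgRNAs. For sgPRMT5-1 the 404 genes became 116 without sgPRMT5-1 replicate 3 and 859 without sgWDR77-1 replicate 1. Leaving out 1 library also gave 393 to 1348 genes in sgWDR77-2 (674 with all), 677 to 1496 in sgWDR77-1, 1918 to 4159 in PRMT5KO (3200 with all), 743 to 1575 in WDR77KO, 338 to 1980 between the PRMT5 sgRNAs and 45 to 505 between the WDR77 sgRNAs. Pathway genes called went from 1 to between 1 and 4 in sgPRMT5-1 with 1 library left out, from 24 to between 21 and 28 in sgPRMT5-2, from 5 to between 4 and 7 in sgWDR77-1, from 5 to between 4 and 6 in sgWDR77-2, from 19 to between 13 and 24 in PRMT5KO and from 6 to between 3 and 10 in WDR77KO. With only the libraries compared they were 3 in sgPRMT5-1, 3 in sgWDR77-1, 11 in PRMT5KO and 1 in WDR77KO. The cause was not tested. No scaling moved the median of all tested genes by over 0.1. A replicate block changed no member call, with 7 in sgPRMT5-2, 2 in sgWDR77-1 and 5 in PRMT5KO as before. Samples of the same replicate number showed no strong shared shift: 2 of 30 same-number pairs had a correlation over 0.1 (range -0.209 to 0.175). Whether they were handled together cannot be read from this. edgeR and DESeq2 were not run, because an automatic unit check failed on the layout of the deposited values, although these are raw counts. BTC had few reads, so a small change in it could be missed, and EPGN was not tested.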
